A study of Homo sapiens with 12 samples.

Results

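The transcripts described here are those of the proteasome subunits. Of 37 listed subunit genes (PSMA1 to PSMA7, PSMB1 to PSMB7, PSMB10, PSMC1 to PSMC6, PSMD1 to PSMD5, PSMD7 to PSMD14 and PSME1 to PSME3), 32 had at least 1 probe set annotated to that gene alone, with 52 probe sets in all of the 22283 on the array. The 26S proteasome is the cell's main machine for degrading ubiquitin-tagged proteins. Its barrel-shaped 20S core has outer rings of PSMA (alpha) subunits, which gate the entry. The inner rings are of PSMB (beta) subunits, some of which cut peptide bonds. The 19S cap has a base of PSMC ATPases, which unfold substrates, with large or ubiquitin-binding PSMD subunits. Other PSMD subunits form the lid, which removes ubiquitin, or are chaperones that assemble the base. The listed PSME subunits form alternative caps, the 11S activators, which open the core without the help of ATP.

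The 4 groups were A549 ρ°, A549 ρ+, 143BTK- ρ° and 143BTK- ρ+ cells, with 3 HG-U133A arrays each. A549 is an epithelial line from a lung adenocarcinoma, and 143BTK- is an osteosarcoma line without thymidine kinase. The ρ° cells had lost their mtDNA, and with it a working respiratory chain, when exposed to ethidium bromide at 50 ng/ml for 3 weeks, with no clones picked, while the ρ+ cells were the undepleted parental cells. Medium with 10% serum, 1 mM pyruvate and 50 µg/ml uridine was used, and each array was made from 12 µg of total RNA. The study then removed ethidium bromide, and the cells of all 4 groups were frozen, revived and passaged before RNA was taken. Past ethidium bromide exposure and mtDNA loss came together in both lines and cannot be told apart. The values are MAS5 signals (a probe set's brightness on a linear scale), quantile-normalized in each line separately, so levels are not comparable between lines, and every change below is ρ° relative to ρ+ within a line. A gene is given by its brightest kept probe set, in the counts as well, unless another probe set is named. In these bulk cultures fewer cells of a type and less RNA per cell cannot be told apart.

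Replicates correlated with Pearson's r of 0.899 to 0.964 across probe sets on the log2 scale, and their median absolute difference was 0.27 to 0.49 on that scale. The lowest agreement was that of 143BTK- ρ° array B with its replicates and of the C arrays of both ρ+ groups with theirs. A549 cells had KRT8 signals of 1141 to 2040 in ρ° and 2215 to 4299 in ρ+, and KRT18 had 2365 to 4824 in ρ° and 7017 to 9408 in ρ+. Likewise CDH1 had 84.2 to 144 in ρ° and 221 to 372 in ρ+, and KRT19 had 2.1 to 5.5 in ρ° and 373 to 471 in ρ+, so that 4 of the 5 epithelial markers had all ρ° arrays below all ρ+ arrays, whereas EPCAM did not exceed 12.8 in A549. The 143BTK- cells had SPARC signals of 685 to 805 in ρ° and 491 to 691 in ρ+, with CDH1 at 1.3 or less. Their VIM signals were 6097 to 7106 in ρ° and 5598 to 6807 in ρ+. VIM was also bright in A549, with 4146.4 to 4732.6 in ρ° and 2447.2 to 4658.3 in ρ+. Of the other mesenchymal markers, CDH2 had 217.2 to 250.5 in 143BTK- ρ° and 129.4 to 148.2 in ρ+. COL1A1 did not exceed 116.2, COL1A2 21.1 and TWIST1 127.7 in 143BTK-. The 143BTK- cells also had KRT18 signals of 2832 to 4883 in ρ° and 3957 to 5027 in ρ+. EPCAM had 24.8 to 47.4 in 143BTK- ρ° and 26.5 to 39.3 in ρ+. The leukocyte marker PTPRC did not exceed 9.2 on any array. The part of these epithelial differences in the proteasome values was not tested.

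In the ρ° cells of both lines the subunit transcripts as a group lay slightly below those of ρ+ cells, and few single subunits passed a test. In A549, 1 subunit rose (PSMB4, a structural beta subunit) and 1 fell (PSMC4, an ATPase of the base), 2 of 32 in all, or 4 of 32 when any kept probe set of a gene counted (PSMA2 and PSMD11 added). Over all 13000 probe sets tested 11% passed, with 5.74% higher and 5.25% lower (limma, adjusted p under 0.05). In 143BTK-, 0 of 32 subunits passed and 0% of 14000 probe sets did by the same test, with 8.4% of the probe sets and 6 of the 32 subunits at an unadjusted p under 0.05. The mean change over both lines, from a fit of all 12 arrays, passed for 0 of 32 subunits, against 3.72% of 12078 probe sets kept in both lines. The change differed between the lines for 1 subunit, the ATPase PSMC6, against 1.95% of probe sets. The adjusted counts among the subunits were therefore no higher than over the array in A549 and in the mean change.

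The direction was less even than the counts of calls. At an unadjusted limma p under 0.05, 5 subunits were lower and 2 higher in A549, against 13.4% and 14.1% of probe sets, and 5 were lower and 1 higher in 143BTK-, against 4.6% and 3.8%. The 5 of 32 lower (15.6%) were thus near the share over all probe sets in A549 and above it in 143BTK-. The 5 lower in 143BTK- were 1 to 4 when any 1 array was left out and 1 with changes centred on the median of their chromosome. A count of 1 (3.12%) stood against 3.48% of all probe sets when centred. Without ρ+ array A, ρ+ array B or ρ° array B, also 1, it stood against 3.02%, 2.89% and 4.84%. The count was 2 (6.25%) without ρ° array A, against 3.59%, and without ρ° array C, against 5.81%. It was 4 (12.5%) without ρ+ array C, against 4.49%. By the order of the arrays, 4 subunits had all ρ° arrays above all ρ+ arrays and 6 below in A549, against 15.8% and 16.1% of probe sets. In 143BTK- these were 2 above and 6 below, against 7.36% and 7.48%. In A549 21 of 32 subunits (65.6%) had a change below 0, with 50.3% of all probe sets tested, and the median was -0.14 (log2), against -0.0034 over all probe sets. In 143BTK-, also 21 of 32 were below 0, again beside 50.3%, with a median of -0.15, against -0.0023. The A549 median was -0.078 with the mean of all kept probe sets of a gene, -0.085 without ρ° array B and -0.22 without ρ° array C, and the 143BTK- median was -0.24 without ρ+ array C. In the mean change 8 of 32 subunits (25%) were lower at an unadjusted limma p under 0.05 and 0 were higher, where 10.1% of all probe sets were lower and 10.6% higher at that level. The 8 were PSMA1, PSMA7, PSMB2, PSMB7, PSMC1, PSMC2, PSMC4 and PSMD1. Dimmer kept probe sets were not counted. At that level those of PSMB2 (mean change 0.69) and PSMD11 (0.75) were higher, and one of PSMA1 was lower (-0.36). An exact permutation of the arrays within both lines, with 400 arrangements and 0.005 as its smallest p, gave 9 of 32 subunits (28.1%) lower at 0.05 or less, the same 8 and PSMB6, and 0 higher. Over all probe sets 7.87% were lower and 8.3% higher by that test. These counts at unadjusted p values were added after the values were seen. The count of 8 was 4 without 143BTK- ρ° array C and 5 without A549 ρ° array A, A549 ρ° array B, A549 ρ+ array C or 143BTK- ρ+ array B, each left out alone, and 8 without both ρ+ C arrays. It was also 5 with changes centred on the median of their chromosome, with 8.79% of all probe sets lower under that setting. The count of 4 was 12.5% of the subunits, against 10.7% of all probe sets. Each count of 5 given here was 15.6%, against 7.96% to 9.63%.

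**Figure D1:**
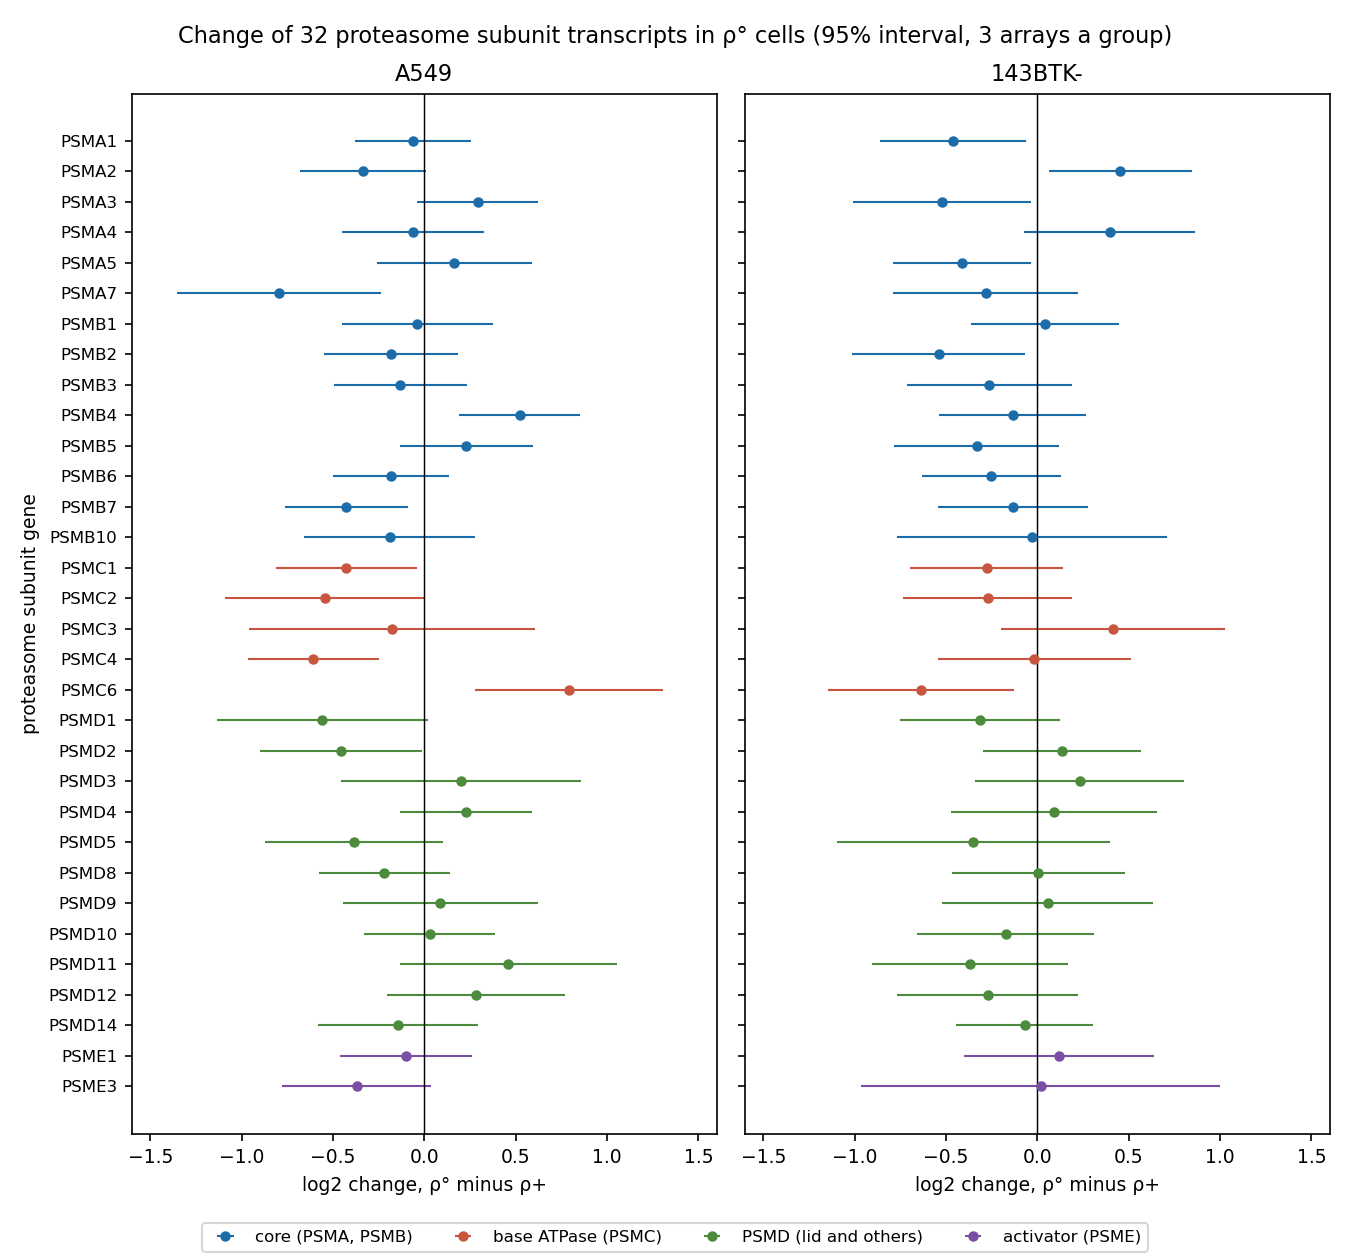
Log2 change of each of the 32 subunit transcripts (ρ° minus ρ+) in A549 and in 143BTK-, with the 95% interval of limma, ordered by subunit class and coloured by class. In each line 21 of the 32 points lie left of 0, and PSMC6 lies on opposite sides of 0 in the 2 panels.

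By class, the base ATPases had the lowest median in A549, and in 143BTK- their median was close to that of the core. The 5 measured PSMC genes had a median change of -0.43 in A549 and -0.27 in 143BTK-, and 4 of 5 were below 0 in each line. The 14 core genes had medians of -0.10 in A549 and -0.26 in 143BTK-, with 10 and 11 of 14 below 0. Within the core, the 6 alpha ring genes had -0.06 and -0.35 and the 7 constitutive beta ring genes -0.13 and -0.25 in A549 and 143BTK-. The 11 PSMD genes had medians near 0, at 0.03 in A549 and -0.07 in 143BTK-. Split by role, the 5 subunits of the lid itself had 0.20 and -0.07, the 3 large or ubiquitin-binding subunits of the base (PSMD1, PSMD2 and PSMD4) -0.46 and 0.09, and the 3 chaperones that assemble the base (PSMD5, PSMD9 and PSMD10) 0.03 and -0.17. The 2 activator genes had medians of -0.24 and 0.07. With the mean of all kept probe sets of a gene the A549 median of the base was -0.18 and that of the activators 0.057, and the 143BTK- core median was -0.17. The 143BTK- core median was -0.10 with chromosome-centred changes. The 143BTK- base median was -0.14 without ρ° array B, the A549 core median -0.17 without ρ° array C and -0.16 without ρ+ array A, and the A549 activator median -0.13 without ρ+ array C. The PSMD median in A549 and the activator median in 143BTK- took either sign when 1 array was left out. The classes were described and not tested against each other.

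Over all 32 subunits the median log2 signal relative to the mean of the ρ+ arrays was -0.13, -0.19 and -0.07 on the A549 ρ° arrays and -0.04, -0.03 and 0.15 on the ρ+ arrays, which did not overlap. In 143BTK- it was -0.04, -0.26 and -0.17 on the ρ° arrays and 0.01, 0.10 and -0.11 on the ρ+ arrays, which did. The median of the 14 core genes on the same scale was -0.13, -0.16 and -0.07 on the A549 ρ° arrays and -0.02, -0.0027 and 0.07 on the ρ+ arrays. The core had -0.09, -0.28 and -0.25 on the 143BTK- ρ° arrays and -0.04, 0.08 and -0.04 on the ρ+ arrays. The ρ° and ρ+ arrays did not overlap in either line for this median. The base ATPases had -0.56, -0.67 and -0.16 on the A549 ρ° arrays and -0.06, 0.05 and 0.06 on the ρ+ arrays. In 143BTK- they had -0.14, -0.29 and -0.14 on the ρ° arrays, against 0.10, 0.15 and -0.28 on the ρ+ arrays, where ρ+ array C lay among the ρ° values. For PSMD and PSME the arrays of both states overlapped in both lines.

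**Figure D2:**
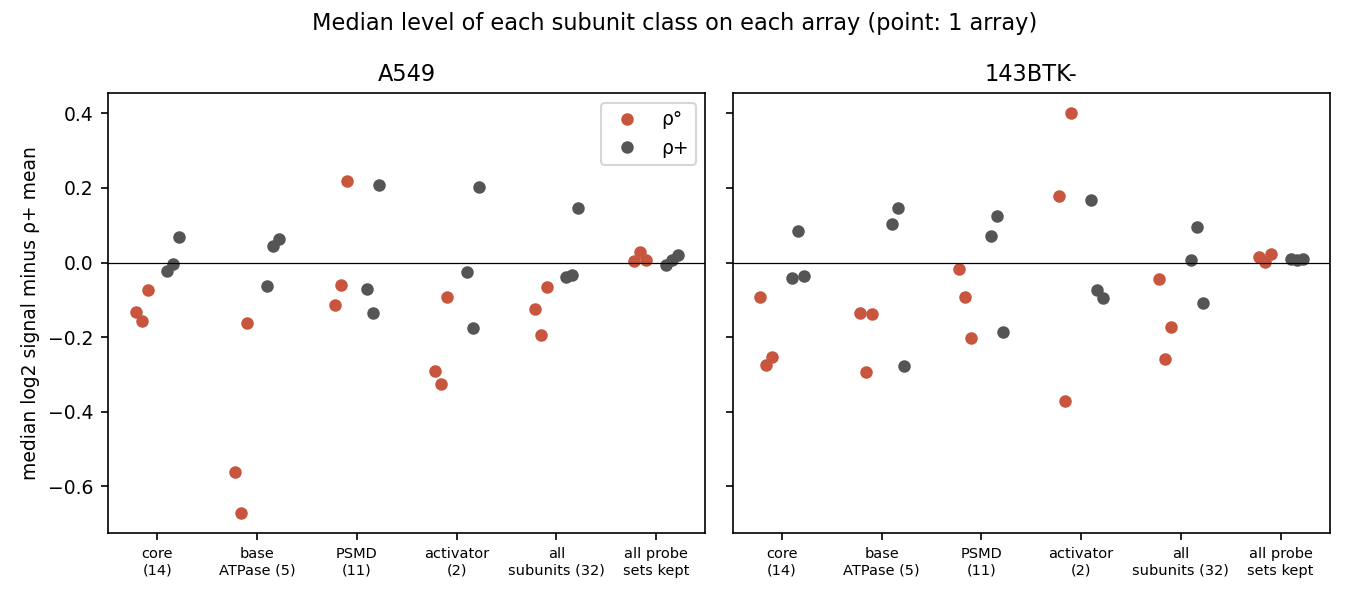
Median log2 signal of each subunit class on each array, relative to that line's ρ+ mean, with ρ° arrays left of ρ+ arrays in each class and the number of genes in brackets. The core medians of ρ° and ρ+ arrays do not overlap in either line, and the medians over all probe sets kept stay near 0.

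PSMC6, 1 of the 6 ATPases of the base, had changes of opposite sign in the lines. Its signal was 256.6, 264.1 and 287.7 on the A549 ρ° arrays, against 151.1, 120.3 and 207.3 on the ρ+ arrays. In 143BTK- it was 285, 196.7 and 235.9 on the ρ° arrays, against 395.4, 345.1 and 364.6 on the ρ+ arrays. The states did not overlap in either line: all ρ° arrays were above all ρ+ arrays in A549 and below them in 143BTK-. The log2 change was 0.79 ± 0.23 in A549 (SE, limma adjusted p = 0.0548) and -0.64 ± 0.23 in 143BTK- (adjusted p = 0.55), and the difference between the lines was 1.43 ± 0.32 with a limma adjusted p of 0.036 over 12078 probe sets. That call was lost when the changes were centred on the chromosome median (0.98, limma adjusted p = 0.158) and when any 1 array other than A549 ρ+ array C was left out (limma adjusted p of 0.0528 to 0.111), and with no intensity trend (0.0587).

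The other ATPases had lower values in ρ° cells or overlapped. PSMC4 had 398.8, 398.6 and 454.5 in A549 ρ° cells, against 607.3, 654.7 and 642.5 in ρ+ cells, so that its groups did not overlap. Its log2 change of -0.61 ± 0.16 passed the test in A549 (SE, limma adjusted p = 0.0384), a 1.52-fold lower signal, but the call was lost without A549 ρ° array A or B or ρ+ array A or B (limma adjusted p of 0.0755 to 0.148), with the replicate letter as a block (0.0534), with chromosome-centred changes (0.052) and with no intensity trend (0.0995). The 143BTK- signals were 313.8, 266.5 and 261.8 in ρ° cells and 312.6, 322.6 and 224.8 in ρ+ cells, with overlapping groups and a change of -0.02, and the difference between the lines of -0.59 did not pass (limma adjusted p = 0.274). PSMC1 had 678.1, 718.3 and 920.8 in A549 ρ° cells, against 916.6, 1106.6 and 1075.6 in ρ+ cells. Its highest ρ° array, C, reached the lowest ρ+ array, A, and its changes were -0.43 in A549 and -0.28 in 143BTK-, with a mean of -0.35 (exact permutation p = 0.02 over both lines). PSMC2 had the third largest mean change of all subunits, -0.41 (-0.54 in A549 and -0.27 in 143BTK-), but its second probe set gave 0.38 in A549. PSMC3 overlapped in both lines, with changes of -0.18 and 0.41.

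The start of the transcription unit is shown for the 3 genes that passed a test by their brightest probe set, as the 250 bases before the start in RefSeq (GRCh38.p14, plus strand, read in the direction of the gene). Capitals mark CGGAAG or its reverse complement, a core of the sites read by ETS factors. The motif was chosen after these sequences were seen, and neither of the 2 other motifs given below contains it or lies within it. PSMB4 lies at chr1:151399323-151399572, PSMC4 at chr19:39970915-39971164 and PSMC6 at chr14:52706950-52707199.
PSMB4: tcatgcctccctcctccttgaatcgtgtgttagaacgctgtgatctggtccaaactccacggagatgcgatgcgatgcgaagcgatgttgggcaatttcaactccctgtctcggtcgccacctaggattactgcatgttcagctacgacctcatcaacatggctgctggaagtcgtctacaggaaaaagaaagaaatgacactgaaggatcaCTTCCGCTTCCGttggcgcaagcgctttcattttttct
PSMC4: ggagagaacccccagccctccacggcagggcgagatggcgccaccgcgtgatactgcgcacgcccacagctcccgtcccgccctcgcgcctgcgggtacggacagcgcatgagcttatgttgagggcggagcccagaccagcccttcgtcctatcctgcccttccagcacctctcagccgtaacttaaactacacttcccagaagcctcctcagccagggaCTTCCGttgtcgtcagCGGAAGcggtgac
PSMC6: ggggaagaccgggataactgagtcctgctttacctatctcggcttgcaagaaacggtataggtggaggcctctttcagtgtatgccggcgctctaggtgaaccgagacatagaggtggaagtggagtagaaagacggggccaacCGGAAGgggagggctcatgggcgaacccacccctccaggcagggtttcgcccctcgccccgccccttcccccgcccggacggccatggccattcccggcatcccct
The motif was in 17 of 32 subunit promoters (53.1%), against 5308 of 27305 promoters of all genes (19.4%), 250 bases each and both strands searched. The measured subunits with it had median changes of -0.10 in A549 and -0.27 in 143BTK- (14 genes), and those without it -0.18 and -0.03 (13 genes). All 3 genes shown hold it and are among the 17. Because the motif was chosen after they were seen, their matches are not a test. The 32 promoters are those of listed genes with a RefSeq promoter entry, not those of the 32 measured subunits. They include PSMA6, PSMC5, PSMD7, PSMD13 and PSME2, which had no probe set of their own. PSMA7, PSMB1, PSMB6, PSMB7 and PSMD4 had no promoter entry, and are in none of the medians by motif, here or below.

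Among the alpha ring genes the largest change was that of PSMA7. It had 1266.4, 646.7 and 1365.2 in A549 ρ° cells and 1759, 1785.4 and 1858.3 in ρ+ cells, with array B of ρ° lowest and no overlap. Its 143BTK- signals were 2540.3, 1495.2 and 2423.7 in ρ° cells and 2978.6, 2569.9 and 2167.2 in ρ+ cells, where the groups overlapped and ρ° array B was again the lowest. Its change was -0.79 ± 0.25 in A549 (SE, limma adjusted p = 0.0705) and -0.28 ± 0.22 in 143BTK-, and its mean of -0.54 was the largest of all subunits (limma adjusted p = 0.118, exact permutation p = 0.02). Without A549 ρ° array B the A549 change was -0.45 and the mean -0.37, behind that of PSMD1. A dimmer PSMA7 probe set overlapped in both lines, with -0.44 in A549, 0.09 in 143BTK- and a mean of -0.17 (exact permutation p = 0.46).

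PSMA1 had overlapping groups in A549 (-0.06), and in 143BTK- it had 836.5, 1027.6 and 806.7 in ρ° cells, against 1355.7, 1178.6 and 1134 in ρ+ cells, all ρ° arrays below all ρ+ arrays, with a change of -0.46 ± 0.18. Both other PSMA1 probe sets also had all ρ° arrays below ρ+ in 143BTK-. The first gave -0.33 there and 0.07 with overlap in A549, and the second -0.49 there and -0.23 in A549, where its states did not overlap either, with a mean of -0.36 (exact permutation p = 0.005). PSMA5 had 1197.5, 1036.2 and 924.2 in 143BTK- ρ° cells and 1304.1, 1469 and 1413.5 in ρ+ cells, again without overlap, and overlapped in A549 (0.17). PSMA4 ran the other way in 143BTK-, with 558.3, 421.4 and 549.8 in ρ° cells and 377.9, 416.5 and 361.1 in ρ+ cells.

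PSMA2 and PSMA3 also had changes of opposite sign in the lines, and of opposite sign to each other. PSMA3 had 862, 870.9 and 974.7 in A549 ρ° cells, against 730.5, 710.1 and 769.2 in ρ+ cells. In 143BTK- it had 650.4, 555.5 and 894.2 in ρ° cells, against 924.2, 952 and 1089.8 in ρ+ cells. Its changes were 0.29 in A549 and -0.52 in 143BTK-, and the difference of 0.81 ± 0.26 did not pass (limma adjusted p = 0.118). PSMA2 had 744.4, 675.9 and 675.9 in A549 ρ° cells, against 799.7, 921.9 and 927.3 in ρ+ cells. The 143BTK- signals were 1110.2, 1240.7 and 1141.3 in ρ° cells, against 762.9, 821.3 and 974.4 in ρ+ cells. Its changes of -0.34 and 0.45 differed by -0.79 ± 0.22 (limma adjusted p = 0.0762). A dimmer PSMA2 probe set fell in A549, with 51.5, 62 and 64.5 in ρ° cells and 94.4, 139.8 and 134.2 in ρ+ cells (-1.03, limma adjusted p = 0.0256), and overlapped in 143BTK- (-0.03). By their brightest probe set, subunits whose ρ° arrays were all above ρ+ in 1 line and all below in the other were 3 of 32 (9.38%), against 2.07% of all probe sets.

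**Figure D3:**
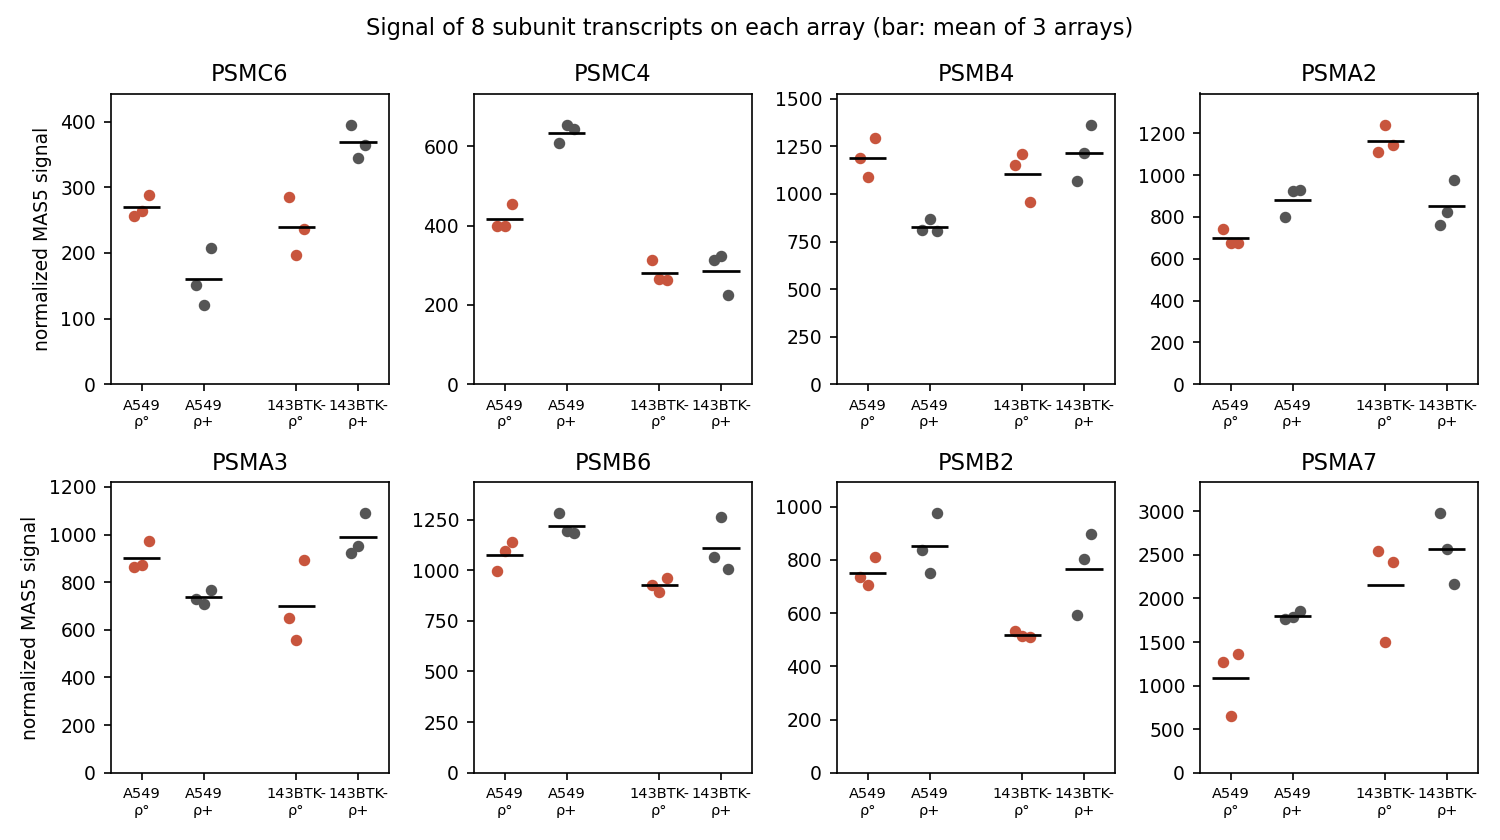
Normalized MAS5 signal of 8 subunit transcripts on each of the 12 arrays, with ρ° left of ρ+ in each line, and the mean of 3 arrays as a bar. PSMC6, PSMA2 and PSMA3 are separated in opposite directions in the lines, PSMB6 is lower in ρ° cells of both lines, and signals are not comparable between lines.

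In the beta ring, PSMB4 was the 1 subunit that rose in A549 by its brightest probe set. It had 1186.4, 1091.1 and 1292.7 in ρ° cells, against 812.6, 866.9 and 804 in ρ+ cells, with no overlap, and a change of 0.52 ± 0.15 (SE, limma adjusted p = 0.0491), a 1.43-fold higher signal. Its second probe set also had all ρ° arrays above ρ+ in A549, with a change of 0.29, but all ρ° arrays below ρ+ in 143BTK- (-0.27). The brightest probe set had 143BTK- signals of 1153.5, 1211.5 and 955.5 in ρ° cells and 1068.9, 1213.7 and 1363.9 in ρ+ cells, which overlapped (-0.14). Its limma adjusted p in A549 was 0.0577 to 0.154 when 1 array was left out, above 0.05 each time, and the call was also lost with the replicate letter as a block (0.069), with no intensity trend (0.14), with no filter on dim probe sets (0.0662) and with quantile normalization over 12 arrays (0.0551).

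The catalytic beta subunits are PSMB6 (beta 1, cutting after acidic residues), PSMB7 (beta 2, after basic residues) and PSMB5 (beta 5, after hydrophobic residues). By the brightest probe set, PSMB6 was the 1 subunit with all ρ° arrays below all ρ+ arrays in both lines, against 1.27% of all probe sets, and 0 subunits were above in both, against 1.44%. A dimmer probe set of PSMA1, given above, was below in both lines as well. PSMB6 had 997.7, 1094.3 and 1137.5 in A549 ρ° cells, against 1281.4, 1194.3 and 1183.5 in ρ+ cells. In 143BTK- it had 929, 894.2 and 963.6 in ρ° cells, against 1063.9, 1263.6 and 1007.5 in ρ+ cells. The changes were small, -0.18 in A549 and -0.25 in 143BTK-, with a mean of -0.22 ± 0.10 (SE, limma adjusted p = 0.25), and its exact permutation p over both lines was 0.005, the smallest that arrangement allows.

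PSMB7 had 735.4, 622.4 and 704.5 in A549 ρ° cells and 949.9, 899.4 and 916.6 in ρ+ cells, without overlap, with a change of -0.43 ± 0.15 in A549 (SE, limma adjusted p = 0.102) and -0.13 in 143BTK-, where the groups overlapped. PSMB5 overlapped in both lines, with 0.23 in A549 and -0.33 in 143BTK-. So the 3 catalytic subunits had changes of different sign and size in A549 and were all below 0 in 143BTK-, at -0.25, -0.13 and -0.33. PSMB2 had 530.8, 513.1 and 509.8 in 143BTK- ρ° cells, against 591.9, 802.9 and 897.7 in ρ+ cells, and overlapped in A549, with changes of -0.54 in 143BTK- and -0.18 in A549. Its dimmer second probe set went the other way, with 0.60 in 143BTK-, 0.77 in A549 and a mean of 0.69 (exact permutation p = 0.04). PSMB10, the interferon-inducible replacement for PSMB7, was dim, with 89, 86.3 and 91.6 in A549 ρ° cells and 92.7, 102.1 and 110.3 in ρ+ cells, and changes of -0.19 and -0.03.

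The large base subunits PSMD1 and PSMD2 had lower values in A549 ρ° cells. PSMD1, a scaffold of the cap, had 326.9, 464.9 and 647.4 in A549 ρ° cells and 581.9, 618.1 and 872.1 in ρ+ cells, overlapping, and the second largest mean change, -0.44 (exact permutation p = 0.035). Its second probe set gave -0.11 in A549 with overlap, -0.26 in 143BTK- with all ρ° arrays below ρ+, and a mean of -0.19 (exact permutation p = 0.165). PSMD2 had 456.9, 554.1 and 705.1 in A549 ρ° cells and 682.4, 757.6 and 889.4 in ρ+ cells, a change of -0.46, and 0.14 in 143BTK-. In both genes array C was the highest of each A549 group. PSMD4, the ubiquitin receptor, had changes of 0.23 and 0.09 with overlap, and its other kept probe sets gave 0.54 and 0.49 in A549, each with all ρ° arrays above ρ+.

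Of the lid subunits, PSMD14, the deubiquitinase that removes the ubiquitin chain, overlapped in both lines, with changes of -0.14 and -0.07. PSMD11 had 637.8, 563.2 and 798.7 in A549 ρ° cells and 438.1, 344.3 and 731.4 in ρ+ cells, a change of 0.46 (limma adjusted p = 0.301) with overlap through ρ+ array C. Its dimmer second probe set rose in A549, with 94.3, 178.5 and 72.4 in ρ° cells and 40.5, 41.4 and 35.5 in ρ+ cells (1.45, limma adjusted p = 0.0223), and overlapped in 143BTK- (0.05). PSMD12 had all A549 ρ° arrays, 378.3, 376.4 and 367.9, just above the ρ+ arrays, 223.7, 356.3 and 363.9. PSMD3 and PSMD8 overlapped in both lines. Among the chaperones, PSMD5 had the fourth largest mean change, -0.37, with overlap in both lines (exact permutation p = 0.105), and PSMD9 and PSMD10 had changes between -0.17 and 0.09.

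The listed activators PSME1 and PSME3 gave no separation between states. PSME1, a subunit of the interferon-inducible cap, had 1066.5, 1019.1 and 1021.6 in A549 ρ° cells and 1112.8, 939.4 and 1306.9 in ρ+ cells, with changes of -0.10 and 0.12. PSME3, which forms the nuclear cap on its own, had changes of -0.37 and 0.02, and its other kept probe sets gave 0.59, -0.02 and 0.66 in A549. PSME4, which is not on the subunit list, had -0.86 in A549 with overlap and -0.66 in 143BTK-, where all ρ° arrays were below ρ+. Its mean of -0.76 did not pass (limma adjusted p = 0.0687, exact permutation p = 0.015). Dimmer PSME4 probe sets gave 0.43 and -0.20 in A549 and -0.79 and -0.31 in 143BTK-. PSME2 and PSMA6 were read only by probe sets annotated to a second gene as well. The PSME2 probe set, shared with MIR7703, gave 0.07 in A549 and -0.18 in 143BTK-. Both PSMA6 probe sets, shared with PRORP, were below 0 in both lines, and the dimmer of them had 164.8, 156 and 185.5 in 143BTK- ρ° cells, against 289.9, 287.3 and 262.8 in ρ+ cells (-0.73, unadjusted p = 0.00753 in limma, adjusted p = 0.483). PSMC5, PSMD7 and PSMD13 were not analysed here. Of the 13 subunits with more than 1 probe set kept, the probe sets differed in sign for 6 in A549 and 7 in 143BTK-.

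The subunit changes were set beside those of the chromosome on which each gene lies. Across the 32 subunits, on 15 chromosomes, the change of a subunit and the median change of the other probe sets of its chromosome had a Pearson's r of 0.335 in A549, 0.484 in 143BTK- and 0.541 for the difference between the lines (Spearman's rho 0.258, 0.396 and 0.414). These are descriptions over genes that share arrays and in part chromosomes. PSMA3, PSMB5, PSMC1, PSMC6 and PSME1 lie on chromosome 14, whose other probe sets had a median of 0.07 in A549 and -0.33 in 143BTK-. Relative to that median PSMC6 was 0.72 higher in A549 and -0.30 in 143BTK-. PSMA2 lies on chromosome 7, with a median of -0.27 in A549 and 0.10 in 143BTK- over the other probe sets, and stood -0.07 and 0.36 from it. PSMB4 on chromosome 1 and PSMC4 on chromosome 19 stood 0.56 and -0.58 from their chromosomes in A549. The part of chromosome number in these values was not tested.

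**Figure D4:**
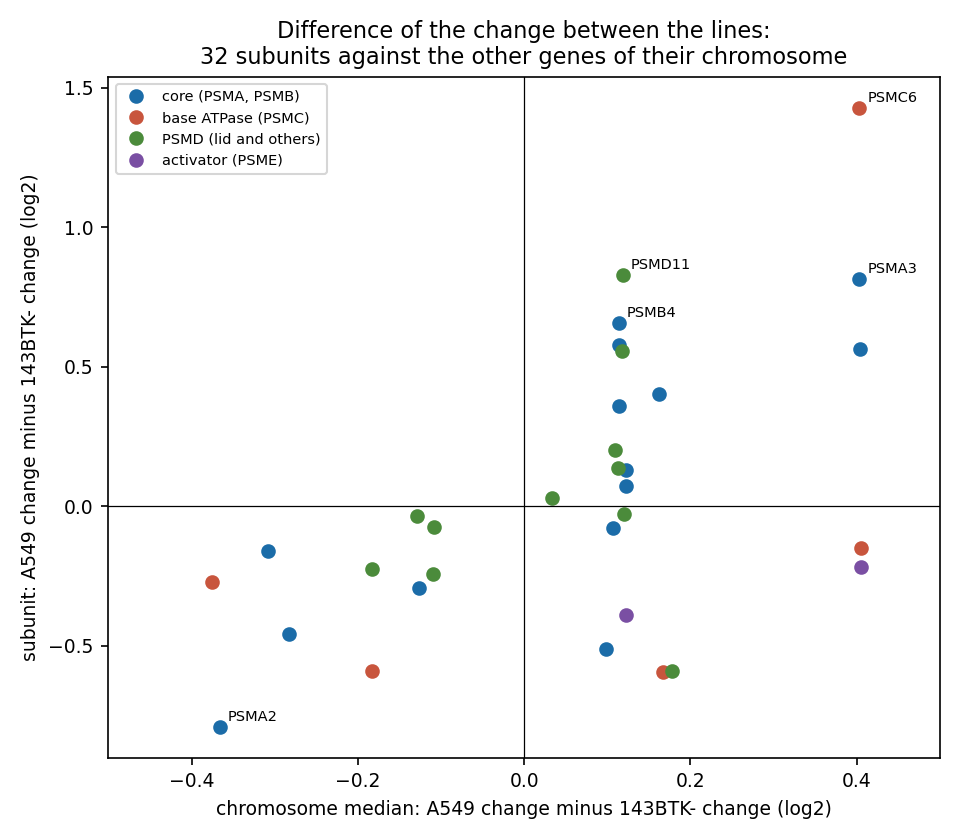
Difference of the log2 change between the lines (A549 change minus 143BTK- change) for each of the 32 subunits, against the same difference of the median over the other probe sets of its chromosome, coloured by class. PSMC6, PSMA3 and PSMB5 on chromosome 14 lie to the upper right, while PSMC1 (-0.15) and PSME1 (-0.22) on the same chromosome lie below 0. PSMA2 on chromosome 7 lies to the lower left, and Pearson's r over the 32 genes is 0.541.

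Around the subunits, 41 genes of the ubiquitin and proteasome pathway were examined, of which 32 had a kept probe set of their own in A549 and 31 in 143BTK-. In A549, 1 rose and 1 fell (limma, adjusted p under 0.05), where 11% of all probe sets passed, and in 143BTK- 0 and 0, where 0% passed. In the mean change 1 rose and 1 fell, with 3.72% of all probe sets passing, and 0 differed between the lines, with 1.95% passing. TXNL1, a thioredoxin-like protein bound to the 19S cap, rose in A549, with 1221.5, 1433.3 and 1080.9 in ρ° cells and 509.1, 485.2 and 700.4 in ρ+ cells (1.15, limma adjusted p = 0.00573). In 143BTK- it overlapped (0.10), and its mean change of 0.63 passed (limma adjusted p = 0.0244). PSMB8, the interferon-inducible replacement for PSMB5, fell in A549, with 80.2, 62.9 and 75.1 in ρ° cells and 147.7, 134.9 and 144.8 in ρ+ cells (-0.98, limma adjusted p = 0.0193), and overlapped in 143BTK- (0.12).

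UBB, which encodes a chain of ubiquitin units, was lower on all ρ° arrays of both lines. It had 4458.4, 3419.3 and 4959 in A549 ρ° cells and 5108.4, 5354.9 and 6231.4 in ρ+ cells. The 143BTK- signals were 3149.9, 2787.9 and 4765.2 in ρ° cells and 5993.4, 5332.8 and 5446.2 in ρ+ cells. Its mean change of -0.54 passed (limma adjusted p = 0.0388, exact permutation p = 0.005).

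NFE2L1 is the transcription factor that raises proteasome genes when proteasome activity is short, through antioxidant response elements. Its brightest probe set over the 12 arrays had 604.4, 738.1 and 529.7 in A549 ρ° cells and 508.8, 240.7 and 357.7 in ρ+ cells (0.81, limma adjusted p = 0.0773). Its 143BTK- signals were 440.5, 409.8 and 393 in ρ° cells, against 355.2, 326.9 and 370.1 in ρ+ cells (0.24), so that ρ° was above ρ+ without overlap in both lines. A second NFE2L1 probe set rose further in A549, with 768.1, 819.1 and 656.1 in ρ° cells and 294, 258.9 and 226.1 in ρ+ cells (1.53, limma adjusted p = 0.00109). In 143BTK- that probe set gave -0.22 with overlap, and its change differed between the lines by 1.74 (limma adjusted p = 0.00581).

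The letters TGACNNNGC, the core of the antioxidant response element, were found on either strand in the 250 bases before the start of 9 of the 32 subunit genes that had a RefSeq promoter (28.1%), against 3609 of 27305 genes (13.2%). The windows of 25 bases around the matches are shown for the 7 of these genes that were measured, since NFE2L1 is known to read this element. They are given 5′ to 3′ in the direction of the gene, from GRCh38.p14, with the match in capitals, and a match in the reverse orientation reads GCNNNGTCA. A match is a description and not a bound site.
PSMA4, chr15:78540652-78540676, plus strand: gggcacgaTGACTCTGCaccgcctc
PSMB3, chr17:38752629-38752653, plus strand: ctccgtttTGACTTTGCaaccaaac
PSMD3, chr17:39980762-39980786, plus strand: ccctttgtTGACTCGGCcatcggcc
PSMD5, chr9:120843040-120843064, minus strand: gctacagtTGACACGGCcctaacgg
PSMD9, chr12:121888633-121888657, plus strand: ctactcctGCCGGGTCAccacaggc
PSMD9, chr12:121888680-121888704, plus strand: gcttccggTGACCCAGCtccgccct
PSMD12, chr17:67366726-67366750, minus strand: acaaaaccTGACGCTGCaggctgga
PSME1, chr14:24136100-24136124, plus strand: ggcagggcTGACCCCGCctcctcca
The genes shown had a median change of -0.06 in A549 and 0.06 in 143BTK-, with a range of -0.38 to 0.28 and of -0.35 to 0.40, and the 20 measured genes without the motif had -0.18 and -0.22. CCAAT, read by NF-Y, was in 15 of 32 subunit promoters (46.9%) and in 37% of all promoters. The 13 measured subunits with CCAAT had medians of -0.13 and -0.07, and the 14 without it -0.14 and -0.27. The motifs were not tested for a part in the changes.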

How the data were processed

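The deposited values are array intensities: MAS5 signals, linear and not logged, which the authors had put through quantile normalization within A549 and within 143BTK-. They were used unchanged. Gene names came from the platform's annotation of its probe sets. Of 22283, 19071 had 1 gene, 1043 several and 2169 none, and 19059 of the 19071 matched RefSeq (GRCh38.p14). The labels gave line and mtDNA state of the 12 arrays, and no column was left out.

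The probe sets with the highest mean log2 signal in a line were kept, 13000 in A549 and 14000 in 143BTK-, which put the lowest mean signal kept at 19.5 and 12.6. Of these, 12078 were kept in both lines, among them 49 of the 52 subunit probe sets. Signals were compared on the log2 scale, with no value added, with limma 3.58.1 in R 4.3.3 (lmFit, eBayes with an intensity trend, two-sided, Benjamini-Hochberg adjustment over all probe sets, threshold 0.05), with 4 residual degrees of freedom in a line and 8 in the fit of 12 arrays, which gave the mean change and the difference between the lines. The power law global error model of the study was not run. The exact permutation test, two-sided, used 400 arrangements over both lines and 20 within a line (smallest p 0.005 and 0.1). A gene was represented by its kept probe set with the highest mean over the 12 arrays.

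Genes were named where any kept probe set passed a test, where the change was among the 6 largest of a line at an unadjusted p under 0.05 or the 5 largest means, or where the gene is a catalytic, inducible, activator, deubiquitinase or ubiquitin receptor subunit, and other members are given by their values. The subunits and lists were chosen with earlier results of these data known. Alternatives were other filters, 16 added before log2, no intensity trend, other scalings, the replicate letter as a block, chromosome-centred changes and arrays left out. The test was tried on simulated data with known changes. The number of arrays limits the precision, and the p-values measure the spread between the 3 arrays of a group, which the study calls biological replicates. The study describes them as separate RNA extractions, and describes pooled ρ° cells with no repeat of the depletion within a line. As described, the p-values hold no spread between depletions. Promoters were read from RefSeq, and matplotlib 3.10.9 (Python 3.11.15) drew the figures.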

Additional observations from a re-analysis of the deposited data

Results flagged for a closer look

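The subunits PSMC6, PSMA3 and PSMA2 stood out because their changes differed between the lines. For PSMC6 the A549 change minus the 143BTK- change was 1.43 on the log2 scale, by a limma test of the difference itself (adjusted p = 0.036), with all 3 ρ° arrays above ρ+ in A549 and below ρ+ in 143BTK-. PSMA3 differed by 0.81 (limma adjusted p = 0.118) and PSMA2 by -0.79 (limma adjusted p = 0.0762). In PSMA3 and PSMA2 all ρ° arrays lay on 1 side of the ρ+ arrays in A549 and on the other side in 143BTK-, but the test of the difference did not pass. PSMC6 and PSMA3 lie on chromosome 14 and PSMA2 on chromosome 7, and after subtraction of the chromosome medians the differences were 0.98, 0.36 and -0.42. The part of chromosome number in them was not tested. With 3 arrays in a group, single outlying arrays were not tested for.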

How the results depend on the processing

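The A549 count of 2 subunits was 4 when any kept probe set of a gene counted (PSMA2 and PSMD11 added), 0 with no intensity trend, and 1 with no filter on dim probe sets, with quantile normalization over 12 arrays, with the replicate block and with chromosome-centred changes. It was 0 to 3 with 1 array left out: 0 without array A or B of either A549 state, and 3 without array C of A549 ρ+. Those 3 were 2 higher and 1 lower, and PSMB4 was not among them (limma adjusted p = 0.0577). Without A549 ρ° array C the 2 called were both lower, so PSMB4 was not among them either. PSMB4 had a limma adjusted p of 0.0421 to 0.154 over these settings and PSMC4 of 0.0326 to 0.148. The count of 1 for the difference between the lines was 0 with no intensity trend and with chromosome-centred changes, and 0 to 1 with 1 array left out. Without 143BTK- ρ° array C the 1 was not PSMC6 (limma adjusted p = 0.0528). In the mean change and in 143BTK- the counts stayed at 0 in each setting. The subunits lower at an unadjusted p under 0.05 in the mean change, 8 as given, were 5 with no intensity trend or chromosome-centred changes. Those 5 (15.6%) stood against 9.69% and 8.79% of all probe sets. With 1 array left out the count was 4 to 10, from 12.5% against 10.7% to 31.2% against 11.3%. In A549 the 5 lower were 2 (6.25%) with no intensity trend, against 12.7% of all probe sets. They were 8 (25%) with the replicate block, against 14%, and 3 (9.38%) without both ρ+ C arrays, against 14.2%. With 1 array left out the count was 2 to 8. The 2 were 6.25% without ρ° array B, against 11%, and the 8 were 25% without ρ° array C, against 13.6%. In 143BTK- the 5 lower were 1 with no intensity trend or chromosome-centred changes and 1 to 4 with 1 array left out. In the first 2 settings that 1 was 3.12% of the subunits, against 4.34% and 3.48% of all probe sets. The core median in A549 ran between -0.17 and -0.075 with 1 array left out. With the mean of all kept probe sets of a gene the medians were -0.18 for the base and 0.057 for the activators in A549 and -0.17 for the core in 143BTK-, and the core there was -0.10 with chromosome-centred changes. The cause of these shifts was not tested. Over all probe sets, calls in A549 were 1429 as given, 803 with no intensity trend and 425 to 1920 with 1 array left out. In the mean change they were 449 as given, 235 with no intensity trend, 284 with chromosome-centred changes and 112 to 559 with 1 array left out. In the difference they were 236 as given, 138 with no intensity trend and 61 to 312 with 1 array left out. Of 2300 values of single genes under these settings 2140 kept their direction and their side of the threshold, 31 lost and 9 gained a call, 120 that passed the threshold in neither setting changed sign, and 0 that passed it in either did.

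Whether the letters A, B and C pair the arrays was not tested. Deviations of ρ° and ρ+ arrays with the same letter correlated with r of 0.0594 to 0.108 in A549 and of -0.106 to 0.358 in 143BTK-. In A549 6 of 6 arrays correlated best with their own letter, and in 143BTK- 2 of 6 did. With the letter as a replicate block the A549 count was 1 (PSMC6 higher), the difference count 1 and the mean and 143BTK- counts 0. The lowest mean signal kept was 19.5 in A549 and 12.6 in 143BTK-.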
